A study of Mus musculus with 16 samples.

Results

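Mgll, which encodes monoglyceride lipase, and 6 other genes whose enzymes make or break down endocannabinoids (Dagla, Daglb, Faah, Napepld, Abhd6 and Abhd12) were followed by symbol through 16 RNA-seq libraries of a mouse pituitary cell line. They are 7 of the 24063 genes listed in both deposited tables. The set was chosen by the level of Mgll in the ER-Pax7 libraries, already known to be low after induction, so its values in that experiment are given as a description, without a test. The other 6 members were named for their function.

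AtT-20 is a mouse pituitary corticotroph tumour line, grown here at passages 10 to 20, and Pax7 is a transcription factor of the melanotropes, a second pituitary cell type that makes the hormone precursor Pomc. One experiment set untreated cells expressing 3x flag-Pax7 (2 libraries) against untreated cells expressing 3x flag-Neo (2 libraries), which served as the control without Pax7. In the other, cells expressing 3x flag-ER-Pax7, a fusion of Pax7 whose ER part responds to 4-hydroxytamoxifen, were sampled untreated (0 h) and after 12, 24 and 96 h with the drug, with 3 libraries at each time. The Pax7 and Neo cells are 1 pair of populations, and all induced cells received 4-hydroxytamoxifen while no group received it without ER-Pax7, so Pax7 cannot be told apart from other differences between the populations or from the drug itself.

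Endocannabinoids are lipids that signal through the cannabinoid receptors Cnr1 and Cnr2, and the 2 best studied are 2-arachidonoylglycerol (2-AG) and anandamide. The diacylglycerol lipases Dagla and Daglb release 2-AG from diacylglycerol, and the serine hydrolases Mgll, Abhd6 and Abhd12 cleave it to arachidonic acid and glycerol, with Mgll doing most of this in the brain. Napepld forms anandamide from a membrane phospholipid, and Faah hydrolyses it. In the pituitary, endocannabinoids and their receptors have been linked to the control of corticotroph hormone release.

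Total RNA was depleted of ribosomal RNA and sequenced as paired ends. The ER-Pax7 values are exon reads scaled to the same total in every library. Reads recovered from them numbered 61.4 to 88.7 M read mates a library. The Pax7 and Neo values are FPKM over whole gene bodies, introns included, at an estimated 44.2 to 54.7 M read mates a library. The 2 tables were scaled separately, so levels are compared within a table. Pax7 itself averaged 2.32 FPKM in Pax7 cells and 0.00522 FPKM in Neo cells, and ranged over 1646 to 1909 scaled exon reads in the ER-Pax7 libraries. Pomc, which both cell types make, was abundant in every library (2390 to 2471 FPKM, or 73885 to 95211 scaled exon reads). The summed list of 7 corticotrope markers, Pomc included, was at 104918 to 109815 scaled exon reads at 0 h. It was at 87812 to 89665 at 24 h and 103875 to 111519 at 96 h. Crhr1 was the lowest of them (0.05 to 0.12 FPKM). A list of 5 melanotrope markers, Pax7 included, summed to 3676 to 3946 scaled exon reads at 0 h. At 96 h that sum was 4423 to 4676. In FPKM it was 6.32 to 6.46 in Pax7 cells and 0.58 to 0.61 in Neo cells. Pax7 in this list is the gene introduced into the cells. Pax7 and Megf11 (1774 to 2099 scaled exon reads) made up most of the exon sum. Pcsk2 ranged over 179 to 542 scaled exon reads and Oacyl over 0.89 to 124. Drd2 was nearly absent, with at most 0.11 scaled exon reads and 0 FPKM. Of 6 markers of other pituitary hormone cells, Prl and Fshb were at 0 throughout, Gh, Tshb and Pou1f1 reached at most 0.21 scaled exon reads and 0.03 FPKM, and Lhb was seen in every library (1.06 to 3.18 scaled exon reads, 0.22 to 0.37 FPKM). The summed list of 4 immune markers, which rests on Cd68 with Cd3e at 0 throughout, was at 0.33 and 0.43 FPKM in Pax7 cells, against 0.17 FPKM in both Neo libraries, and at 6.60 to 11.3 scaled exon reads in the ER-Pax7 libraries, where the 4 times overlapped. Its part in the differences between Pax7 and Neo cells was not tested. At 12 h, the ribosomal precursor Rn45s took 2.34% of the scaled reads of replicate 2, and 0.753% to 1.26% of those of the other ER-Pax7 libraries.

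The 250 bases before the start site of 3 members, chosen by their results, are printed here because Pax7 binds DNA through a paired domain and a homeodomain. They are from RefSeq on GRCm38.p6, in the direction of transcription. A window was at hand for 5 of the 7 members, and those of Abhd6 and Napepld are not printed. Capitals mark matches on either strand to the homeodomain core TAAT (ATTA on the other strand). The paired domain core GTCAC (or GTGAC) and a dimer of TAAT and ATTA with any 3 bases between them were searched as well; the dimer contains the core on both strands. The windows lie at chr6:88724162-88724411 (plus strand) for Mgll, chr5:143464243-143464492 (plus strand) for Daglb and chr4:116017925-116018174 (minus strand) for Faah. The deposited Faah gene ends at base 116017902, so its window does not adjoin that start.
Mgll: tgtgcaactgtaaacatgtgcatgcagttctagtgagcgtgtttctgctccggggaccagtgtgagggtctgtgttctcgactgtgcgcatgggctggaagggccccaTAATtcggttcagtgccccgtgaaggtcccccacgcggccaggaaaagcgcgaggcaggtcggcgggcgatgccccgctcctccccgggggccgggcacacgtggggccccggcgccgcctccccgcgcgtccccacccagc
Daglb: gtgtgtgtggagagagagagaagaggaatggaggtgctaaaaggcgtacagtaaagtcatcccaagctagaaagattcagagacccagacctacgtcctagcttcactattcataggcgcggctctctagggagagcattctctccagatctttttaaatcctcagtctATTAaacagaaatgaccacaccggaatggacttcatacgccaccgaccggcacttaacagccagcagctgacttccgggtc
Faah: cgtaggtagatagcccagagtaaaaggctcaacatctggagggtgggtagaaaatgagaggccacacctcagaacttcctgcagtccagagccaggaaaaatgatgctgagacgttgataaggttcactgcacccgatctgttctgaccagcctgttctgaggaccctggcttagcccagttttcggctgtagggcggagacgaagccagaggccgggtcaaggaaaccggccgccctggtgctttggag
Mgll and Daglb had 1 TAAT match each and Faah had 0. Among 32851 windows of the same length 54.9% held at least 1 such match, so a match is common. GTCAC, present in 39.8% of all windows, and the dimer, present in 0.463%, were found in none of the 3. The Mgll window had 68.0% G and C and 23 CpG dinucleotides, against 49.2% and 9 for Daglb, 55.6% and 9 for Faah, and a median of 52.4% G and C over all windows.

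Mgll was the member whose level differed most between groups in both experiments. The gene lies on mm10 chromosome 6, bases 88724412 to 88828360, on the plus strand. It was counted over 3666 exon bases for the ER-Pax7 libraries and over a gene body of 103948 bases for the Pax7 and Neo libraries. The tables list it under different RefSeq transcripts with the same start and end, so the printed window lies before the start given in both. No other listed gene overlaps it or any other member, so the counting, which had no strand option, could not mix in an overlapping listed gene.

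In ER-Pax7 cells Mgll stood at 85.4, 80.4 and 85.6 scaled exon reads at 0 h, at 30.4, 32.5 and 32.6 at 12 h, at 20.49, 31.9 and 28.3 at 24 h, and 16.3, 17.7 and 11.3 after 96 h. Every induced library was below every 0 h library, the 12 h and 24 h libraries overlapped, and every 96 h library was below every 24 h library. Group means were 83.8 ± 2.95 at 0 h, 31.8 ± 1.25 at 12 h, 26.9 ± 5.85 at 24 h, and 15.1 ± 3.35 after 96 h (SD, n = 3 each). These rest on 688 to 1047 recovered mates a library at 0 h, 288 to 311 at 12 h, 179 to 300 at 24 h, and 126 to 167 after 96 h.

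Relative to 0 h the mean level of Mgll was 0.380 times as high at 12 h, 0.321 times at 24 h, and 0.180 times after 96 h. On the log2 scale, after adding 1 scaled exon read, the differences were −1.37, −1.62 and −2.42 (SE 0.14 each). Ranked from the lowest difference, Mgll was the third of 15188 genes at 12 h and again at 24 h, and the first at 96 h. The step between 12 h and 24 h was small (−0.26), and the one between 24 h and 96 h was −0.79. In the authors' deposited table the log2 differences from 0 h were −1.38, −1.63 and −2.47. No p-value is given for these differences, because they chose the gene.

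Pax7 and Neo cells are a separate experiment, in which Mgll was tested. Its deposited values were 0.03 and 0.03 FPKM in Pax7 cells, against 0.15 and 0.13 FPKM in Neo cells. Both Pax7 libraries were below both Neo libraries. After normalization Mgll averaged 0.0292 ± 0.00076 FPKM in Pax7 cells and 0.144 ± 0.0112 FPKM in Neo cells (SD, n = 2 each), a ratio of 0.203. Rounding of the deposited values to 2 decimals alone lets the ratio of the deposited means lie between 0.172 and 0.259. The estimated number of mates on the gene body was 147 and 169 in Pax7 libraries and 966 and 785 in Neo libraries. Mgll was lower in Pax7 cells by limma (log2 −0.91 after adding 0.1 FPKM, SE 0.08; adjusted p = 0.00564, Benjamini-Hochberg over 13393 genes). The pseudocount shrinks so low a gene's fold, which was −1.97 with 0.01 FPKM added and −0.15 with 1 FPKM added.

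The Mgll test has 2 limits. Mgll passed the filter of 0.1 FPKM in at least 2 libraries through both Neo libraries alone, so it could be tested only because it was high there. Without that filter it was still called (limma, adjusted p = 0.00910). Leaving out any 1 of the 4 libraries as well ended the call, at log2 differences of −0.87 to −0.97. Those fits were chosen after seeing the data and called few genes of any kind, so the lost call is not particular to Mgll.

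**Figure D1:**
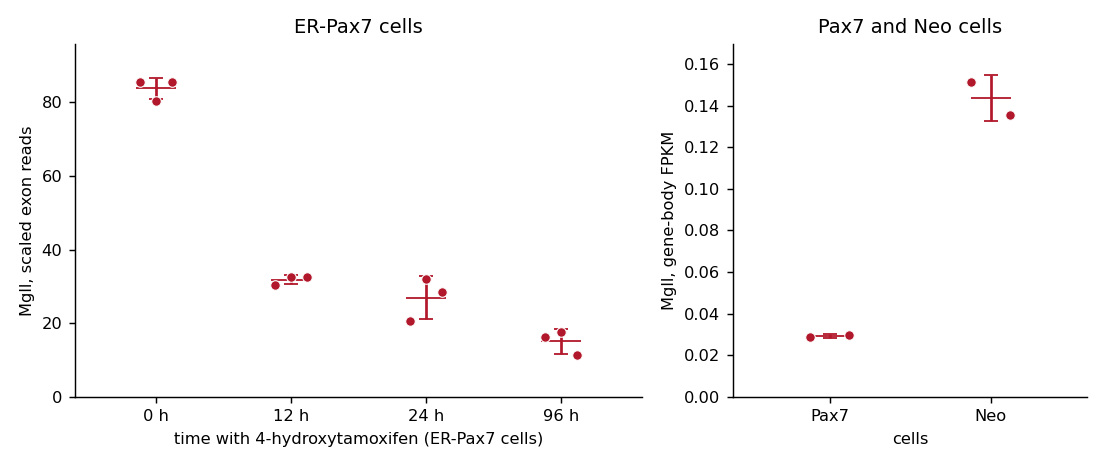
Mgll in each library (points) with the group mean and SD (bars): scaled exon reads by hours with 4-hydroxytamoxifen in ER-Pax7 cells (left) and gene-body FPKM in Pax7 and Neo cells (right); the axes have different units. The 3 libraries at 96 h sit between 11.3 and 17.7, below the 0 h libraries at 80.4 to 85.6, and both Pax7 libraries sit below both Neo libraries.

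When Pax7 cells were set against Neo cells, 36.6% of all genes tested had an adjusted p under 0.05 (18.1% higher and 18.5% lower in Pax7 cells), and the groups did not overlap in 73.8%. Among the members 5 of 7 were called: Mgll and Abhd12 were lower in Pax7 cells, and Dagla, Faah and Abhd6 were higher. Mgll is in this count although it entered the test only through the Neo libraries, where it was high. The groups did not overlap in any of the 7. Apart from Mgll, the sizes were small, at most 0.24 on the log2 scale. With the deposited totals in place of normalization factors, 67.7% of called genes were higher in Pax7 cells, against 49.4% with the factors, and 3 members were called. Leaving out any 1 of the 4 libraries ended the calls of Dagla, Faah, Abhd6 and Abhd12 (limma, adjusted p = 0.0506 to 0.199).

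The other 2 hydrolases of 2-AG differed between groups by less than Mgll. Abhd6, a membrane-bound 2-AG hydrolase, had 0.430 and 0.427 FPKM in Pax7 cells and 0.364 and 0.345 FPKM in Neo cells. Both Pax7 libraries were above both Neo libraries (log2 0.22, SE 0.05; limma, adjusted p = 0.0405). Abhd12, which also hydrolyses lysophosphatidylserine, had 1.19 and 1.11 FPKM in Pax7 cells and 1.37 and 1.39 FPKM in Neo cells. It was lower in Pax7 cells (log2 −0.24, SE 0.05; limma, adjusted p = 0.0272), with no overlap between the groups.

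In ER-Pax7 cells Abhd6 was at 148, 154 and 150 scaled exon reads at 0 h, at 157, 167 and 165 at 12 h, at 176, 164 and 161 at 24 h, and 161, 181 and 165 after 96 h. All 9 induced libraries were above the 0 h libraries. Abhd6 was higher at 96 h than at 0 h (log2 0.16, SE 0.06; limma, adjusted p = 0.0306), while at 12 h and 24 h the difference did not pass (adjusted p = 0.346 and 0.101). The 96 h call was lost without 96 h replicate 2 (log2 0.11; adjusted p = 0.191), 0 h replicate 1 (adjusted p = 0.0768) or 0 h replicate 3 (adjusted p = 0.0704).

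Abhd12 was at 680, 629 and 631 scaled exon reads at 0 h, at 616, 577 and 603 at 12 h, at 559, 608 and 588 at 24 h, and 587, 618 and 597 after 96 h. All induced libraries were below those at 0 h, by about the same amount at each time. It was lower at 24 h than at 0 h (log2 −0.15, SE 0.04; limma, adjusted p = 0.0252), and the differences at 12 h (−0.11, adjusted p = 0.150) and 96 h (−0.11, adjusted p = 0.0595) did not pass. The 24 h call was lost without 0 h replicate 1 (−0.11, adjusted p = 0.123), without 24 h replicate 1 (−0.11, adjusted p = 0.142) and with the deposited totals (−0.13, adjusted p = 0.0517).

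Per kilobase of counted exon, Abhd12 was by far the most abundant of the 3 hydrolase transcripts and Mgll the least. Mgll made up 5.32 ± 0.186% of their summed level per kilobase at 0 h, 2.19 ± 0.117% at 12 h, 1.88 ± 0.361% at 24 h, and 1.04 ± 0.215% after 96 h (SD, n = 3 each). The sum of all 3 was 429 ± 14.1 scaled exon reads per kilobase at 0 h and 396 ± 14.0 at 96 h. The level of Abhd6 per kilobase was 3.29 ± 0.184 times that of Mgll at 0 h and 21.1 ± 4.74 times at 96 h. In the gene-body FPKM, Mgll made up 1.82 ± 0.117% of the 3 in Pax7 cells and 7.64 ± 0.536% in Neo cells (SD, n = 2 each). These shares contain Mgll and are given without a test.

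Of the diacylglycerol lipases, Daglb differed over the time course and Dagla between Pax7 and Neo cells. Daglb was at 269, 267 and 246 scaled exon reads at 0 h, at 297, 295 and 274 at 12 h, at 288, 282 and 279 at 24 h, and 314, 287 and 289 after 96 h. All induced libraries were above the 0 h libraries. Its level at 96 h was higher than at 0 h (log2 0.18, SE 0.05; limma, adjusted p = 0.00653). The differences at 12 h (0.15, adjusted p = 0.0930) and 24 h (0.12, adjusted p = 0.128) did not pass. Without 96 h replicate 1 the 96 h difference was 0.14, with an adjusted p of 0.05003, just above the threshold.

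Dagla, the main 2-AG-forming lipase of the brain, was at 257, 250 and 244 scaled exon reads at 0 h, at 227, 241 and 227 at 12 h, at 251, 236 and 225 at 24 h, and 243, 239 and 229 after 96 h. The 12 h and 96 h libraries were all below those at 0 h, and 1 of the 24 h libraries was among them. No difference from 0 h passed the test (log2 −0.11, −0.08 and −0.08 at 12, 24 and 96 h; limma, adjusted p = 0.236, 0.332 and 0.220). The 95% interval of the 96 h difference ran from −0.18 to 0.02.

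Between Pax7 and Neo cells, Dagla had 0.679 and 0.655 FPKM in Pax7 cells and 0.566 and 0.553 FPKM in Neo cells. Its level was higher in Pax7 cells (log2 0.22, SE 0.05; limma, adjusted p = 0.0299). Daglb had 1.04 and 1.03 FPKM in Pax7 cells and 0.949 and 1.01 FPKM in Neo cells, and the difference did not pass (log2 0.07, 95% interval −0.06 to 0.20; adjusted p = 0.286).

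The ratio of Dagla to Daglb per kilobase was 0.553 ± 0.0161 at 0 h, 0.462 ± 0.0205 at 12 h, 0.482 ± 0.0187 at 24 h, and 0.460 ± 0.0177 after 96 h (SD, n = 3 each). The highest induced library, at 0.5004, was below the lowest 0 h library, at 0.539. An exact permutation test of a single induced time against 0 h, 3 against 3 libraries, cannot go below 0.1. No test of this ratio was made. In FPKM the ratio was 0.643 ± 0.0119 in Pax7 cells and 0.571 ± 0.0349 in Neo cells (SD, n = 2 each), which is the opposite direction.

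Of the 2 anandamide enzymes, Faah was called at 96 h and Napepld at no time; the difference between them was not tested. Faah was at 699, 722 and 718 scaled exon reads at 0 h, at 717, 698 and 695 at 12 h, at 725, 707 and 662 at 24 h, and 638, 628 and 633 after 96 h. The 96 h libraries lay close together and below every other library. Faah was lower at 96 h than at 0 h (log2 −0.17, SE 0.04; limma, adjusted p = 0.00116) and lower at 96 h than at 24 h (−0.14, SE 0.04; adjusted p = 0.0149). The differences at 12 h (−0.02, adjusted p = 0.874) and 24 h (−0.03, adjusted p = 0.656) did not pass. The 96 h call against 0 h held under all 16 alternatives tried, with adjusted p-values up to 0.00782. The call against 24 h was lost without 24 h replicate 1, 24 h replicate 2 or 96 h replicate 2 (adjusted p = 0.0740, 0.0646 and 0.0649).

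Between Pax7 and Neo cells Faah had 4.63 and 4.53 FPKM in Pax7 cells and 4.22 and 4.23 FPKM in Neo cells. It was called higher in Pax7 cells at the edge of the threshold (log2 0.11, SE 0.03; limma, adjusted p = 0.0493), and 12 of 15 alternatives ended that call.

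Napepld was at 64.3, 66.1 and 56.2 scaled exon reads at 0 h, at 67.1, 68.6 and 57.8 at 12 h, at 62.9, 67.7 and 62.2 at 24 h, and 57.7, 62.1 and 60.8 after 96 h. Each induced time overlapped 0 h. Its log2 difference from 0 h was 0.05, 0.05 and −0.04 at 12, 24 and 96 h (limma, adjusted p = 0.848, 0.768 and 0.727), and the 95% interval at 96 h ran from −0.22 to 0.13. It had 0.249 and 0.278 FPKM in Pax7 cells and 0.293 and 0.282 FPKM in Neo cells (log2 −0.09, 95% interval −0.28 to 0.09; adjusted p = 0.337).

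**Figure D2:**
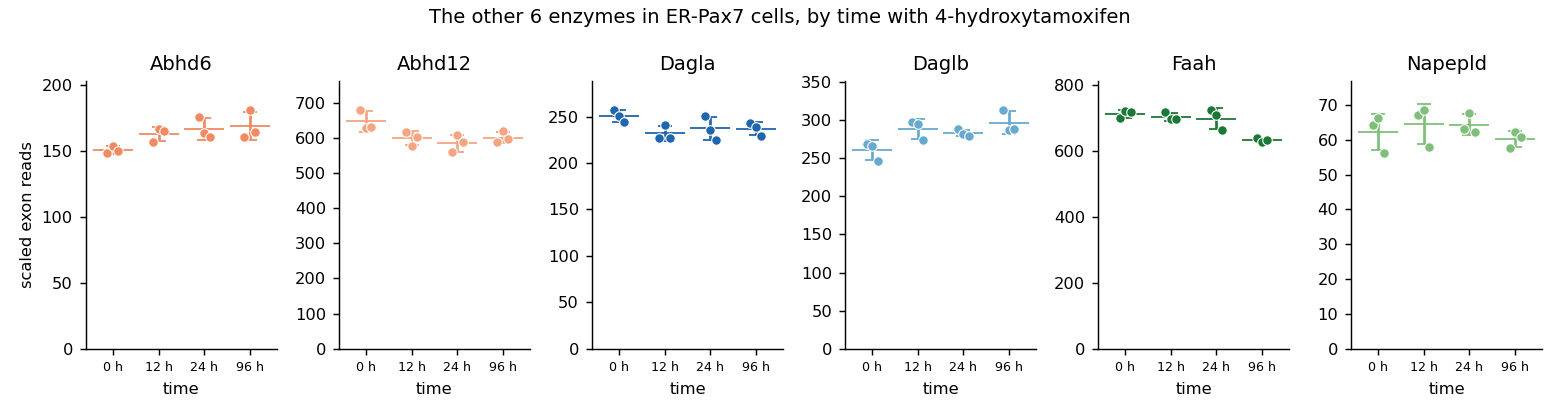
The 6 members other than Mgll in each ER-Pax7 library (points), as scaled exon reads by hours with 4-hydroxytamoxifen, with the group mean and SD of 3 libraries; each panel has its own axis from 0. The 96 h libraries of Faah lie at 628 to 638, below all earlier ones, and Napepld overlaps between 0 h and each induced time.

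**Figure D3:**
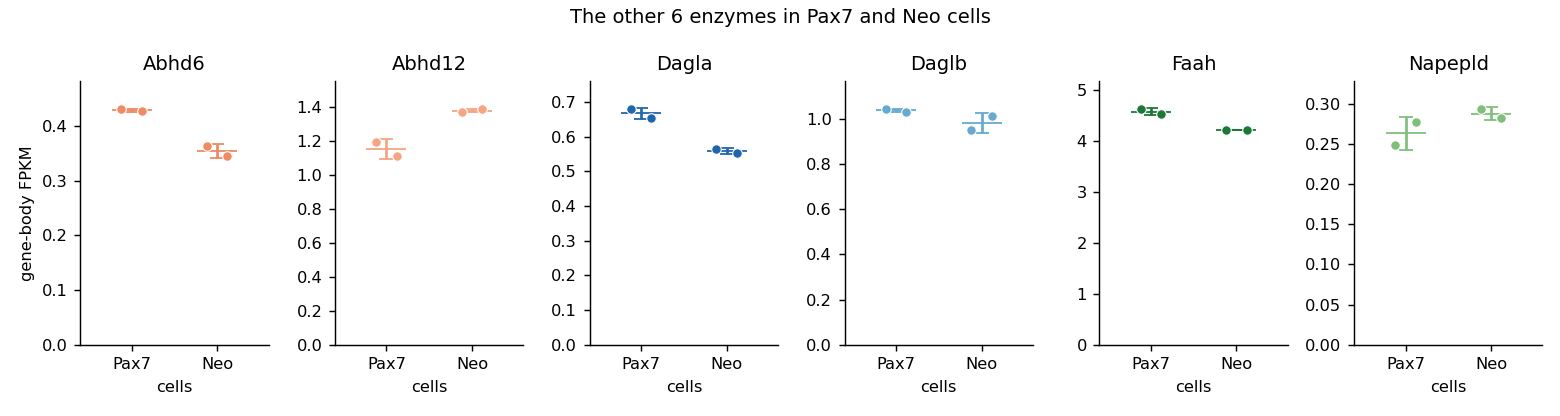
The same 6 members in Pax7 and Neo cells (points), as gene-body FPKM, with the mean and SD of 2 libraries; each panel has its own axis from 0. Abhd12 is lower in Pax7 cells (1.11 and 1.19 FPKM, against 1.37 and 1.39 FPKM in Neo cells), and Dagla, Abhd6 and Faah are higher there.

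Counted by time, and without Mgll, 0 of 6 members passed the limma test at 12 h, where 6.53% of all genes did. Dagla, Daglb and Abhd12 had an unadjusted p under 0.05 there. The share of all genes at that looser threshold was not counted, so these members cannot be set against it. At 24 h 1 of 6 members was called (Abhd12), against 13.6% of all genes (7.92% called lower), and at 96 h 3 of 6 (Daglb and Abhd6 higher, Faah lower), against 33.8% of all genes (16.5% higher and 17.3% lower). Between 24 h and 12 h, where 0.158% of all genes were called, 0 of 6 members were, and none had an unadjusted p under 0.05. Between 96 h and 24 h 1 of 6 was called (Faah), against 12.6% of all genes (6.62% called lower). The test for any change over the 4 times called Daglb (adjusted p = 0.0315) and Faah (adjusted p = 0.00374), against 30.3% of all genes. The libraries of the induced time and of 0 h did not overlap in 4 of the 6 members at 12 h, 3 at 24 h and 5 at 96 h, against 20.3%, 28.2% and 45.9% of all genes at these times. The median log2 difference of all genes was at most 0.0039 in size in each of these comparisons.

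The largest absolute difference from 0 h among these 6 members was 0.18 on the log2 scale (Daglb at 96 h), against 2.42 for Mgll. The mean level of Faah at 96 h was 0.888 times that at 0 h, and that of Daglb 1.14 times.

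**Figure D4:**
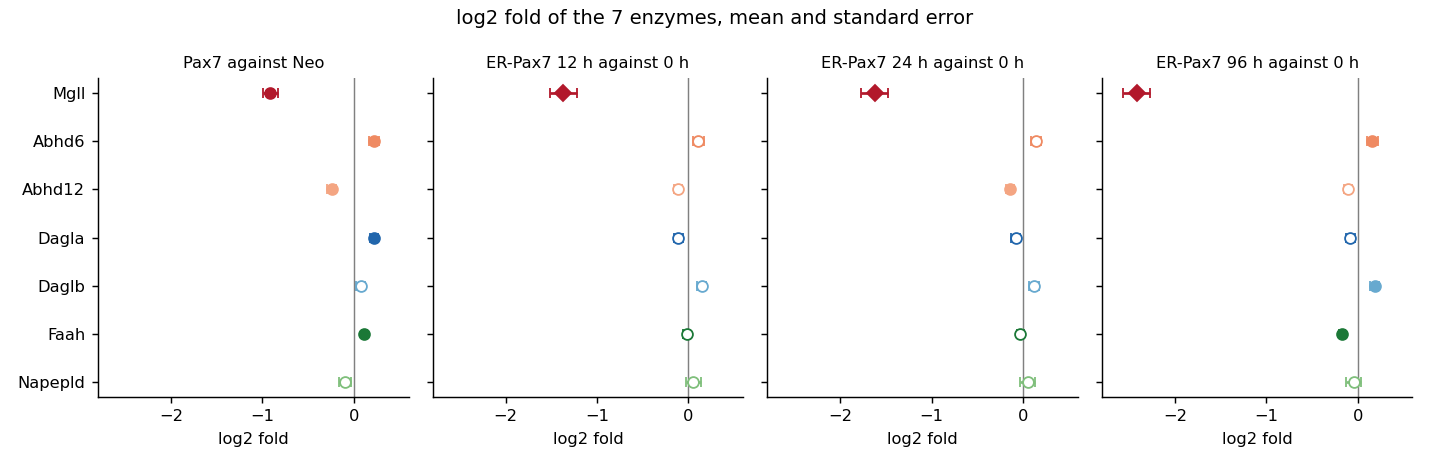
log2 difference (x axis) of the 7 members in each comparison, with the standard error; points right of 0 are higher in the group named first. Filled circles passed an adjusted p under 0.05, open circles did not, and diamonds are Mgll where no test is given. Mgll stands at −0.91 between Pax7 and Neo cells and at −1.37, −1.62 and −2.42 at 12, 24 and 96 h, and the others stay within 0.24 of 0.

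Per kilobase, the order of the members at 0 h was Abhd12 (331 ± 14.8 scaled exon reads per kilobase), Faah (188 ± 3.21), Daglb (80.8 ± 3.97), Abhd6 (75.1 ± 1.51), Dagla (44.7 ± 1.18), Mgll (22.9 ± 0.806) and Napepld (16.97 ± 1.43; SD, n = 3 each). Only the libraries of Daglb and Abhd6 overlapped as neighbours in that order. From 12 h on Mgll was the lowest of the 7, at 8.68 ± 0.342 against 17.6 ± 1.59 for Napepld at 12 h, and at 4.12 ± 0.913 against 16.4 ± 0.617 at 96 h. The other 6 kept their order at every time.

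In gene-body FPKM, the order was Faah, Abhd12, Daglb, Dagla, Abhd6, Napepld and Mgll in both Pax7 and Neo cells, with no overlap between neighbours. Faah led with 4.58 ± 0.0664 FPKM in Pax7 cells and 4.23 ± 0.00448 FPKM in Neo cells (SD, n = 2 each). Gene-body values divide by introns too, so these levels are not on the scale of the exon values.

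Of 53 other genes of the pathway, listed by function, 42 could be tested in the ER-Pax7 table and 25 in the Pax7 and Neo table. At 96 h 4 were higher and 6 lower than at 0 h, 23.8% of those tested, against 33.8% of all genes; at 24 h 3 were higher and 4 lower (16.7%, against 13.6% of all genes), and at 12 h 0 higher and 1 lower (2.38%, against 6.53%). Between Pax7 and Neo cells 5 were higher and 1 lower in Pax7 cells, of 25 tested, against 36.6% of all genes. The median log2 difference of the list was 0.00084 at 96 h and 0.015 between Pax7 and Neo cells, and that of all genes 0.00099 and 0.0027.

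Transcripts of the receptors were scarce. Cnr1, the main cannabinoid receptor of the brain, was listed at 0 in all 16 libraries. Cnr2, best known from immune cells, had 1.44 to 2.30 scaled exon reads at 96 h and 2.22 to 4.49 at 0 h (limma, adjusted p = 0.0639), and 0.0287 and 0.0397 FPKM in Pax7 cells and 0.0404 and 0.0209 FPKM in Neo cells, too low to be tested there. Of 9 receptors and lipid sensors, 5 could be tested over time and 1 between Pax7 and Neo cells. Limma called 0 of them in any of the 7 comparisons, where it called 0.158% to 36.6% of all genes. With so few genes tested, this count does not show that none changed.

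Of the diacylglycerol kinases, which consume the lipid from which Dagla and Daglb make 2-AG, 3 of 9 were lower and 1 higher at 96 h than at 0 h, 44.4% of the list, against 33.8% of all genes (17.3% lower and 16.5% higher). Dgkb was at 3.40, 3.17 and 3.68 scaled exon reads at 96 h, against 13.6, 11.9 and 13.6 at 0 h (log2 −1.66, SE 0.16; limma, adjusted p = 1.12e-07). It was already lower at 12 h (−1.07, SE 0.16; adjusted p = 1.68e-04) and at 24 h (−1.55, SE 0.16; adjusted p = 9.69e-07), and was listed at 0 in Pax7 and Neo cells. Dgkh averaged 76.5 scaled exon reads at 96 h and 95.7 at 0 h (log2 −0.32, SE 0.08; adjusted p = 0.00477). It was also lower in Pax7 cells (0.161 FPKM) than in Neo cells (0.221 FPKM; log2 −0.30, SE 0.07; adjusted p = 0.0337).

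Between Pax7 and Neo cells 1 of 4 carriers and 3 of 5 tested genes for other routes of N-acylethanolamine synthesis were higher in Pax7 cells, where 18.1% of all genes were called higher. Fabp5, a fatty acid binding protein that carries anandamide inside cells, had 58.6 and 62.6 FPKM in Pax7 cells and 33.1 and 32.4 FPKM in Neo cells (log2 0.89, SE 0.04; limma, adjusted p = 0.00244). In ER-Pax7 cells Fabp5 was not called at any time. The phospholipase Pla2g16 (0.443 FPKM in Pax7 cells and 0.319 FPKM in Neo cells; log2 0.38, SE 0.07; adjusted p = 0.0217) and the phosphodiesterase Gdpd3 (2.96 FPKM in Pax7 cells and 2.50 FPKM in Neo cells; log2 0.24, SE 0.05; adjusted p = 0.0348) were higher too.

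Of the genes for other removal and oxidation, 2 of 5 tested were lower at 96 h than at 0 h, where 17.3% of all genes were called lower. These were the lipoxygenase Alox15 (0.454 scaled exon reads at 96 h and 1.82 at 0 h; log2 −0.96, SE 0.28; limma, adjusted p = 0.0111) and the monoacylglycerol acyltransferase Mogat2 (0.533 at 96 h and 1.81 at 0 h; −0.88, SE 0.26; adjusted p = 0.0126), both barely detected. All 3 libraries at 96 h were under the filter of 1 scaled exon read for both genes, so they could be tested only through the earlier times, where they were higher. Naaa, an acid amidase of N-acylethanolamines, averaged 126 scaled exon reads at 24 h, against 143 at 0 h (log2 −0.18, SE 0.06; adjusted p = 0.0432), and 145 at 96 h, higher than at 24 h (0.20, SE 0.06; adjusted p = 0.0265). Alox12 was higher at 24 h than at 0 h (2.04 scaled exon reads at 24 h and 0.720 at 0 h; log2 0.85, SE 0.27; adjusted p = 0.0376). It too was barely detected, with deposited values of 0.35, 0.58 and 1.22 at 0 h. Alox12 thus passed the filter of 1 scaled exon read mainly through the induced times, where it was higher. Fabp7, a carrier, was lower at 24 h than at 0 h (−0.65, SE 0.15; adjusted p = 0.00443) and higher at 96 h than at 24 h (0.89, SE 0.15; adjusted p = 3.93e-04).

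**Figure D5:**
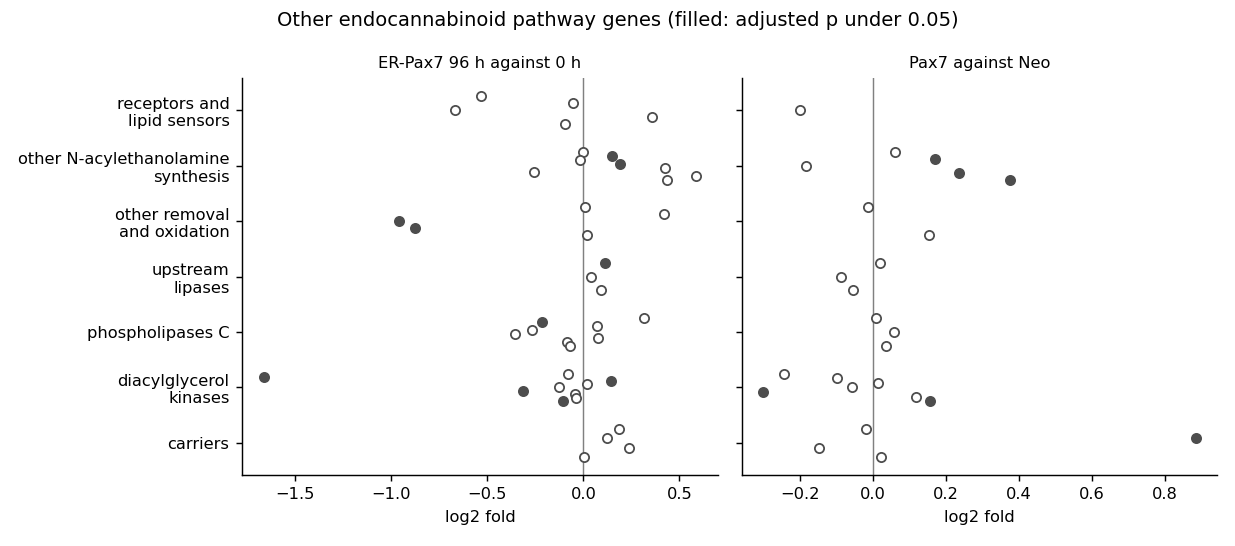
log2 difference (x axis) of the other pathway genes that could be tested, by list (rows), for 96 h against 0 h in ER-Pax7 cells (left) and Pax7 against Neo cells (right); 1 point is 1 gene, and filled points passed an adjusted p under 0.05. Dgkb lies farthest left at 96 h (−1.66), and Fabp5 farthest right between Pax7 and Neo cells (0.89).

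The genes whose time course was most like that of Mgll were found by the distance between their 3 log2 differences from 0 h and those of Mgll, among 10258 named genes with a mean of at least 50 scaled exon reads. Mgll itself averaged 39.4, below that floor, so genes as low as Mgll were not searched. Dgkb, with −1.07, −1.55 and −1.66 at 12, 24 and 96 h, was among those left out. The nearest of the genes searched were Fxyd3 (distance 0.79), Sln (0.96), Prlr (0.99), Akr1c14 (1.08) and Olfml3 (1.24). All 5 had smaller differences than Mgll at each time. Fxyd3, a regulator of the sodium pump, came closest at 96 h, with 22.1 ± 0.827 scaled exon reads at 96 h and 111 ± 6.22 at 0 h (SD, n = 3 each; log2 −2.27). Sln, the sarcolipin that regulates the calcium pump, had 25.0 ± 3.11 at 96 h and 80.7 to 102.4, on average 92.7, at 0 h (−1.85), and the prolactin receptor Prlr had 144 ± 5.85 at 96 h and 495 ± 27.0 at 0 h (−1.78).

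In the separate Pax7 and Neo experiment these 5 genes were all lower in Pax7 cells (limma, adjusted p = 0.00279 to 0.00687), where 18.5% of all genes were called lower. Prlr, at 0.0893 and 0.0956 FPKM in Pax7 cells after normalization, lay close to the filter minimum there. It needed the Neo libraries, where it was high, to pass the filter. Prlr averaged 0.0924 ± 0.00447 FPKM in Pax7 cells and 0.344 ± 0.0137 FPKM in Neo cells (SD, n = 2 each; log2 −1.21, SE 0.07). Fxyd3 averaged 0.619 ± 0.0368 FPKM in Pax7 cells and 1.73 ± 0.164 FPKM in Neo cells (log2 −1.35, SE 0.08).

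The authors' deposited table for Pax7 and Neo gives a log2 difference of exactly 0 and a p of 1 for 6 of the 7 members, Mgll included, and 0.17 with a p of 1 for Faah. All 4 FPKM of Mgll, Abhd6 and Napepld round to the whole number 0, and all 4 of Dagla, Daglb and Abhd12 round to 1. The 4 FPKM round to 0 in 13567 genes, of which 13532 have a deposited log2 difference of exactly 0. In the authors' deposited table for ER-Pax7, Faah is at −0.17 between 96 h and 0 h (FDR 0.00680), Daglb at 0.18 (FDR 0.0797) and Abhd6 at 0.16 (FDR 0.404).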

How the data were processed

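RNA was sequenced after ribosomal depletion, with 50 bp read at both ends, per the labels' protocols. TopHat, HOMER and edgeR, without versions, and mm10 (GRCm38) are named per the submitters' processing notes. For ER-Pax7 the authors counted reads over RefSeq exons with HOMER, without a strand option, and deposited a signal scaled to 1 total per library, per the file headers and the values. Low values were whole multiples of 1 read in 100% of cases within 0.1 reads, which gave back whole reads. For Pax7 and Neo the authors deposited FPKM over gene bodies with 2 decimals, per the file headers. The authors' deposited log2 folds, p-value and FDR columns come from edgeR run through HOMER, per the file headers, and are printed only where named.

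Groups were taken from the labels. Nothing there says whether replicates came from different cultures: p-values then reflect only how far these libraries spread, which may be technical. Values divided by TMM factors (edgeR 4.0.16) were tested with limma 3.58.1 (moderated, with trend, R 4.3.3) as log2(value + pseudocount), a scale that understates the folds of low genes. The pseudocount was 1 scaled exon read or 0.1 FPKM, for genes with at least 1 scaled exon read in 3 libraries (15188 genes) or 0.1 FPKM in 2 libraries (13393 genes). Adjusted p-values are Benjamini-Hochberg over all these genes, with a threshold of 0.05. The 12 ER-Pax7 libraries shared 1 model. DESeq2 1.42.0 and edgeR on recovered reads were alternatives. The fit was tested on simulated data. Members, gene lists and tests were chosen with earlier results of these data known. Named were all 7 members, Cnr1 and Cnr2, and up to 4 called pathway genes with the largest differences per comparison. The 5 genes nearest to Mgll, among those with a mean of at least 50 scaled exon reads, were named too. Depth in the Pax7 and Neo libraries was estimated from the FPKM steps of short genes, and rounding leaves 24 to 32 mates of uncertainty on Mgll. Same-numbered replicates were checked for pairing.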

Additional observations from a re-analysis of the deposited data

Results flagged for a closer look

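Dagla and Faah pointed in opposite directions in the 2 experiments. Dagla had a log2 difference of 0.217 between Pax7 and Neo cells and of -0.0811 between 96 h and 0 h in ER-Pax7 cells. In each experiment every library of the first group lay on that side of every library of the other. Separation like this was common, seen for 73.8% of tested genes with Pax7 against Neo cells and 45.9% with 96 h against 0 h. Faah had 0.114 between Pax7 and Neo cells and -0.172 between 96 h and 0 h, again with no overlap. The values come from separately scaled tables, over gene bodies in one and over exons in the other, so the difference between experiments was not tested. Of the 4 values, that of Dagla at 96 h did not pass (limma, adjusted p = 0.220), and those between Pax7 and Neo cells lost their call when any 1 library was left out.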

How the results depend on the processing

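Over 43 tested results of single members, 30 stayed on their side of the threshold under every alternative run, and no alternative turned a called direction. Most of these 30 had not been called in the main fit. Among the called results, only those of Faah at 96 h against 0 h and over all 4 times kept their call throughout. Between Pax7 and Neo cells the 5 called members became 3 with the deposited totals, 3 without a filter, 3 with a filter of 0.5 FPKM, and 0 to 1 without 1 library, with or without the filter. The 4906 genes called there became 1957 to 2730 without 1 library, and 0 to 69 without 1 library and without a filter, an alternative chosen after seeing the data. Mgll could not be tested without a Neo library or at 0.5 FPKM, because it then missed the filter. At 24 h against 0 h the 1 called member became 0 with the deposited totals and 0 to 1 without 1 library. For 24 h against 12 h the 24 genes called became 89 with DESeq2 and 11 to 31 without 1 library, 11 without 24 h replicate 1. For 96 h against 24 h the 1 called member became 0 without 24 h replicate 1, 24 h replicate 2 or 96 h replicate 2, and the 1921 genes called became 1260 to 1732 without 1 library, 1260 without 96 h replicate 2. Over all 4 times the 2 called members became 1 without a filter and 1 without 0 h replicate 2, 0 h replicate 3 or 96 h replicate 1. With 10 scaled exon reads added, the log2 difference of Mgll was −1.36 at 24 h and −1.91 at 96 h. Where a library was left out of Pax7 or Neo, the lone library is assumed to vary like the other group. The cause of these changes was not tested.

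Same-numbered libraries correlated weakly in their deviations from the group means (r from −0.0824 to 0.144 in the ER-Pax7 comparisons, 0.0375 for Pax7 and Neo). The main tests did not pair the samples, though correlations this weak cannot exclude a pairing. For 12 h and 96 h against 0 h every library did correlate best with its own number, a hint from the data and not from the design, and in the comparisons with 24 h this was not so. With the replicate block, 1 member was called between Pax7 and Neo cells (Mgll, adjusted p = 0.0264) and 1 at 12 h against 0 h (Daglb, adjusted p = 0.0306), and 53 genes were called for 24 h against 12 h. The block also brought Abhd12 past the threshold at 96 h against 0 h (adjusted p = 0.0480) and over all 4 times (0.0380). Abhd12 over all 4 times passed as well with edgeR (0.0437) and DESeq2 (0.0310) on recovered reads, with the stricter filter (0.0481), and without 12 h replicate 1, 12 h replicate 2 or 24 h replicate 2 (0.0334 to 0.0442), and at 96 h against 0 h with only those groups in the fit (0.0472). Depth limits Mgll at 96 h to 126 to 167 mates and in Pax7 cells to 147 and 169.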
